A study of Homo sapiens with 24 samples.

Results

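Autophagy is the process by which cells enclose cytoplasm in a double membrane, the autophagosome, and deliver it to the lysosome for breakdown. It is started by the ULK1 kinase complex and a phosphatidylinositol 3-kinase complex, the membrane grows with lipid from ATG2 and ATG9, and ubiquitin-like conjugation enzymes attach LC3 and GABARAP proteins to it, to which cargo receptors such as SQSTM1 bind. In hepatocytes it is known for the turnover of protein aggregates, mitochondria and lipid droplets. The set described here has 35 genes of this machinery, chosen by their known roles but with earlier results of these data known. They were found by symbol (GENCODE release 29) in a table of 57979 genes. All 35 had a row, and 33 passed the filter on low values used for testing, a mean of at least 0.5 FPKM (fragments per unit of transcript length and of sequencing depth) over all 24 libraries. They comprise 5 genes of the initiation kinase complex, 6 of the phosphatidylinositol 3-kinase complex, 5 of phagophore growth (ATG2, ATG9 and WIPI genes), 10 conjugation enzymes and ATG4 proteases, 4 LC3 and GABARAP genes and 5 cargo receptors.

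The RNA came from Huh7 cells, a human hepatoma line, that carried a knockout (KO) of *ABHD6*, a serine hydrolase of monoacylglycerols, or were wild type (WT). Cells of each genotype were taken without treatment in basal medium (0 h), or 24 h or 48 h into a treatment with the saturated fatty acid palmitic acid at 800 µM, which gives 6 groups of 4 libraries: KO and WT at 0 h, KO and WT at 24 h, and KO and WT at 48 h. All groups grew in the same serum-containing medium. No library had 24 h or 48 h in culture without the acid, and effects of the acid and of time in culture cannot be told apart; the treatment protocol itself names a harvest on day 1 only. Neither the number of KO clones nor whether the libraries of a group are separate cultures is given in the labels, and p-values therefore reflect only the spread among the libraries. The labels number the libraries of a group 0 to 3, and replicate numbers below are these.

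The values rested on an estimated 398107 to 724436 fragments per library, so that 1 fragment on a transcript of 2 kb was worth about 0.690 to 1.26 FPKM. This estimate came from the spacing of the lowest FPKM values and assumes no scaling between libraries. *ABHD6* averaged 0.239 FPKM and was above 0 in 4 of 12 KO and 3 of 12 WT libraries, too low to check the genotype. The 10 hepatocyte markers summed to 835 to 2015 FPKM per library, against 0 to 35.7 for 4 leukocyte, 0.462 to 18.04 for 4 endothelial and 0 to 10.1 for 4 stellate markers; *VWF*, *CDH5*, *KDR* and *MARCO* were at 0 in every library. Antisense genes took up 44.0% to 58.1% of all FPKM in a library, with group means of 57.2% in KO and 57.0% in WT at 0 h and 44.6% to 47.1% in the groups at 24 h and 48 h. Genes of the mitochondrial genome held a group mean of 3.89% in KO and 3.53% in WT at 0 h, and 11.1% to 13.8% in the later groups. The 13 protein genes among them summed to 37344 to 128359 FPKM per library. Yet *MT-CO1* was at 0 in every KO and WT library at 24 h and 48 h. *MT-CO3*, *MT-ATP6* and *MT-ATP8* were also at 0 in every WT library at 48 h, and the reason was not tested. Estimated fragments averaged 437014 in KO and 442448 in WT at 0 h, and 590666 to 682491 in the later groups. FPKM summed over all genes averaged 1151065 in KO and 1106530 in WT at 0 h, and 857235 to 950007 in the later groups. The FPKM scale was therefore not constant between groups. These shares, the estimated depth and this sum changed with time as the members did, and their part in the results was not tested. In these bulk libraries a smaller number of expressing cells and less RNA per cell cannot be told apart.

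The autophagy genes spanned a wide range of levels. The highest, averaged over the 24 libraries, were *ATG10* at 275 FPKM, *ATG7* at 238 FPKM, *SQSTM1* at 144 FPKM and *ATG4D* at 61.7 FPKM. *OPTN* (40.5 FPKM), *ATG3* (35.1 FPKM), *GABARAP* (33.9 FPKM), *WIPI1* (32.3 FPKM), *TAX1BP1* (28.5 FPKM) and *ATG13* (22.97 FPKM) followed, and over the 24 libraries each of these 10 overlapped its neighbour in this order. In all, 10 members averaged at least 20 FPKM, 17 lay between 5 and 20 FPKM and 8 were under 5 FPKM, with a median of 12.8 FPKM. Only 24 of the 35 were above 0 in every library. *ULK2*, a kinase related to *ULK1*, was at 0 in 19 libraries (mean 0.0831 FPKM), and *ATG2B*, a lipid transfer protein, averaged 0.331 FPKM. These were the 2 members left out of the tests.

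A second measured property divides the set. The libraries were made with a directional kit, and no source used here gives the strand setting with which fragments were counted. In the annotation 19 of the 35 members share exon sequence with a gene on the opposite strand and 16 do not; of the 33 tested these were 18 and 15. For 18 members such a partner averaged at least 0.5 FPKM, and in 10 of them the partner was the higher of the pair. *MRNIP*, opposite *SQSTM1* over 1582 exon bases, averaged 7932 FPKM, 55.2 times *SQSTM1*. *AC025259.1*, opposite *ATG101* over 614 bases, averaged 2210 FPKM against 14.5 FPKM for *ATG101*. *HARBI1* (397 FPKM) stood opposite *ATG13*, and *CNTD1* (337 FPKM) opposite *BECN1*. Across the table the antisense gene was the higher in 673 of 879 antisense and coding pairs (76.6%), with a median log2 ratio of 3.29. Whether the values of these pairs, or of members without a partner, hold fragments of the named strand was not tested. The levels and changes of all members are therefore uncertain as measures of the named transcripts. Members without a partner averaged at most 18.3 FPKM.

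**Figure D1:**
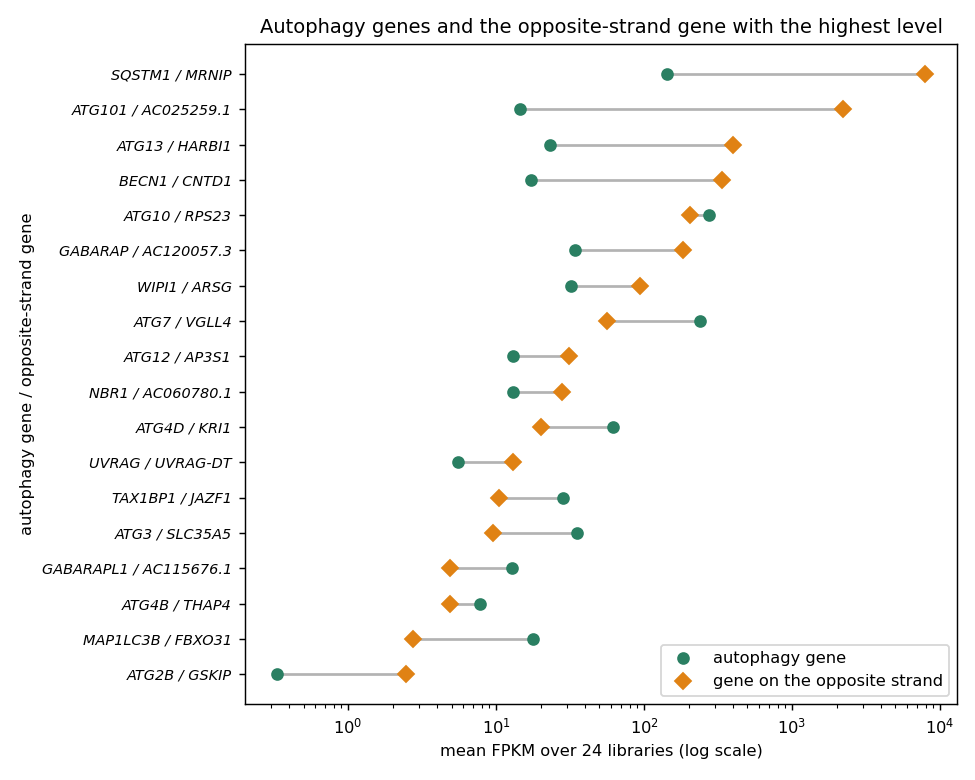
Mean FPKM over 24 libraries (log scale) of the 18 autophagy genes whose opposite-strand partner averaged at least 0.5 FPKM (circles) and of the partner with the highest level (diamonds). *MRNIP*, the partner of *SQSTM1*, is the highest at 7932 FPKM, and the partner lies above the autophagy gene in 10 of 18 pairs.

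Over time under palmitic acid, *GABARAP* and *SQSTM1* rose and *ATG10*, *ATG7* and *ATG4D* fell in cells labelled KO, by the calls described below. In WT the calls were *SQSTM1* and *ATG13* higher and *ATG10* lower. No member passed the test for a difference between the KO and WT responses, so these lists do not show that the genotypes differed. The question addressed is which autophagy transcripts differ after the acid, and whether they do so alike in KO and WT. Each comparison used limma on log2(FPKM + 0.5) with 4 libraries per group and Benjamini-Hochberg adjustment over 17252 genes, and a gene is called below at an adjusted p under 0.05. Positions given with gene IDs are those of the annotation on GRCh38. Folds are log2 changes on that scale with their standard error (SE), and understate the change of low genes. In KO cells at 24 h 4 of 33 members were called, 2 higher and 2 lower, where 5.64% of all genes were called (2.13% higher and 3.51% lower). In KO at 48 h it was 4 members, 2 higher and 2 lower, beside 9.82% of all genes (3.4% higher and 6.42% lower). In WT at 24 h it was 2 members, 1 higher and 1 lower, beside 4.06% of all genes (1.46% higher and 2.6% lower). In WT at 48 h it was 3 members, 2 higher and 1 lower, beside 6.79% of all genes (2.57% higher and 4.22% lower). The median log2 change of the 33 members was 0.51 in KO and 0.22 in WT at 24 h, and 0.33 in KO and 0.16 in WT at 48 h, beside a median of 0 over all genes. At 24 h 29 of 33 members lay above 0 in KO and 21 in WT, and at 48 h 22 in KO and 21 in WT. Most single members therefore lay above 0 without passing the test. The share of all tested genes above 0 was not counted, so these counts have no background. KO at 24 h and 48 h share their 0 h libraries, as do WT at 24 h and 48 h.

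All 6 called members have an opposite-strand partner. None of the 15 tested members without a partner was called by limma in any comparison, while 9 of their 135 tests had an unadjusted p under 0.05; their lowest adjusted p was 0.0525, for *ATG5* in KO at 48 h. Under some alternative settings *ATG5* was called higher in KO and WT at 48 h, for example with a filter at 2 FPKM (adjusted p = 0.0379 in KO and 0.0384 in WT), and *ATG2A* in WT at 24 h, for example with a pseudocount of 0.1 (adjusted p = 0.0238). Over all genes the share called was also higher with a partner than without, at 8.43% and 3.23% in KO at 24 h, 14.5% and 5.73% in KO at 48 h, 6.33% and 2.11% in WT at 24 h, and 10.1% and 3.89% in WT at 48 h.

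**Figure D2:**
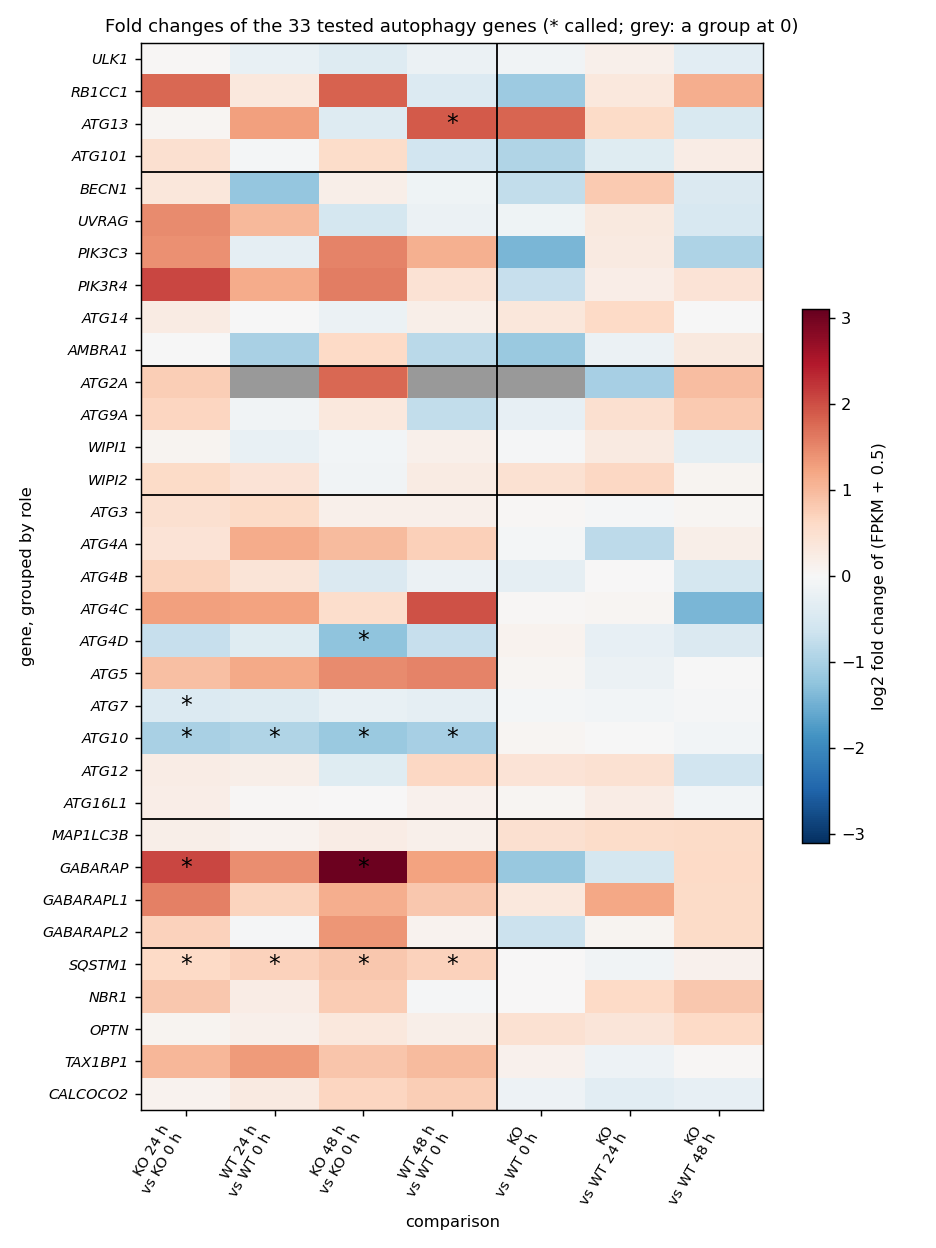
Log2 fold change of (FPKM + 0.5) for the 33 tested autophagy genes, grouped by role, in 4 comparisons over time and 3 of KO with WT; red is higher in the group named first, blue is lower, asterisks mark calls, and grey marks *ATG2A* comparisons with a group at 0. Asterisks fall on *ATG10* and *SQSTM1* in all 4 time comparisons, on *GABARAP* in both KO ones, on *ATG7* and *ATG4D* in 1 KO one each and on *ATG13* in 1 WT one, and on none of KO with WT.

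Among the initiation genes only *ATG13* (ENSG00000175224.16, chr11:46617527-46674818, plus strand), the scaffold of the ULK1 complex, was called, in WT at 48 h. In KO libraries it was at 28.4, 28.2, 27.2 and 25.9 FPKM at 0 h, 33.7, 30.5, 21.1 and 30.4 FPKM at 24 h, and 21.7, 18.2, 23.8 and 19.8 FPKM at 48 h. In WT libraries it was at 16.0, 0.536, 11.0 and 19.97 FPKM at 0 h, 22.0, 15.9, 16.4 and 21.9 FPKM at 24 h, and 35.7, 22.3, 32.9 and 27.6 FPKM at 48 h. All WT libraries at 48 h lay above all WT libraries at 0 h, of which replicate 1 was far below the other 3. The WT change at 48 h was 1.90 ± 0.56 (SE; limma adjusted p = 0.0395), and 0.92 without that library (adjusted p = 0.0270). The call was lost when any 1 of the 4 WT libraries at 48 h was left out (highest adjusted p = 0.0999), and also with a pseudocount of 0.1, without the filter and without a variance trend (highest adjusted p = 0.0695). *HARBI1*, its partner, was not called in any comparison. The other kinase complex members were not called. *ULK1*, the kinase that starts autophagosome formation, had group means of 4.76 to 7.48 FPKM. *RB1CC1*, its scaffold partner, was at 0 in 3 libraries and reached 13.7 FPKM in another. *ATG101*, which stabilises ATG13, ranged from 1.69 to 39.5 FPKM.

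None of the 6 genes of the phosphatidylinositol 3-kinase complex was called by limma, and 4 of their 54 tests had an unadjusted p under 0.05. *BECN1* (ENSG00000126581.12, chr17:42810134-42833350, minus strand), its regulatory subunit and the member of this group with the highest mean (17.2 FPKM), was at 24.4, 12.5, 4.91 and 18.2 FPKM at 0 h, 11.9, 26.0, 6.76 and 36.4 FPKM at 24 h, and 21.3, 16.0, 11.0 and 12.5 FPKM at 48 h in KO. The WT libraries were at 19.6, 27.1, 21.7 and 21.1 FPKM at 0 h, 6.97, 9.94, 7.02 and 15.6 FPKM at 24 h, and 22.8, 19.9, 25.4 and 14.1 FPKM at 48 h. All 4 WT libraries at 24 h lay below those at 0 h, but the change of -1.20 ± 0.46 had a limma adjusted p of 0.171. *CNTD1*, opposite *BECN1*, was called lower in KO at 48 h (-0.42, adjusted p = 0.00618). *PIK3C3*, the lipid kinase itself, had group means of 3.60 to 15.2 FPKM, and *PIK3R4*, its regulatory subunit, of 3.32 to 9.76 FPKM. *ATG14*, which directs the complex to autophagosome formation, had group means of 7.69 to 12.01 FPKM. *UVRAG*, of the alternative complex, and *AMBRA1*, which binds BECN1, were at 0 in 2 and 6 libraries.

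The genes of phagophore growth were also not called, with 2 of 36 limma tests at an unadjusted p under 0.05. *WIPI1* (ENSG00000070540.12, chr17:68420948-68457513, minus strand), which binds the lipid product of the kinase, was at 48.8, 9.65, 52.1 and 33.6 FPKM at 0 h, 33.6, 24.8, 32.5 and 40.5 FPKM at 24 h, and 33.4, 25.5, 22.1 and 34.1 FPKM at 48 h in KO. The WT libraries were at 46.2, 36.2, 34.5 and 16.3 FPKM at 0 h, 23.1, 29.5, 31.7 and 23.4 FPKM at 24 h, and 53.0, 29.7, 36.5 and 25.7 FPKM at 48 h. The groups overlapped at every time. *ARSG*, opposite *WIPI1* over 828 bases, rose in all 4 comparisons, by 1.60 in KO and 1.25 in WT at 24 h, and by 1.10 in KO and 0.84 in WT at 48 h. *WIPI2*, the form that recruits ATG16L1, ranged from 3.65 to 45.3 FPKM, and *ATG9A*, the membrane protein of ATG9 vesicles, from 5.07 to 21.4 FPKM. *ATG2A*, which moves lipid into the growing membrane, was at 0 to 0.501 FPKM in KO and listed at 0 in each of the 4 WT libraries at 0 h, and at 24 h at 0 to 1.41 FPKM in KO and 0.396 to 8.59 FPKM in WT. Its WT libraries at 24 h were thus all above those at 0 h, but the test gave an adjusted p of 0.0586 (limma).

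Among the conjugation enzymes *ATG10* (ENSG00000152348.15, chr5:81972025-82276857, plus strand) fell in all 4 comparisons over time, with the lowest adjusted p of the set in each. ATG10 is the E2-like enzyme that joins ATG12 to ATG5. In KO libraries it was at 452, 386, 425 and 428 FPKM at 0 h, 234, 214, 180 and 214 FPKM at 24 h, and 206, 146, 201 and 212 FPKM at 48 h. In WT libraries it was at 448, 452, 364 and 374 FPKM at 0 h, 227, 196, 198 and 230 FPKM at 24 h, and 194, 183, 262 and 171 FPKM at 48 h. Every later library lay below every library at 0 h in both genotypes. The change was -1.01 ± 0.14 in KO (limma adjusted p = 6.79e-05) and -0.94 ± 0.14 in WT (adjusted p = 0.000262) at 24 h. At 48 h it was -1.16 ± 0.14 in KO (adjusted p = 4.95e-06) and -1.03 ± 0.14 in WT (adjusted p = 4.33e-05). These calls held in each alternative fit that kept the gene, with the smallest change, -0.63, in WT under quantile normalization. *RPS23*, a ribosomal protein gene opposite *ATG10* over 374 bases and at a mean of 205 FPKM, was called higher in KO at 48 h (1.01, adjusted p = 0.00396) and in no other comparison.

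*ATG7* (ENSG00000197548.12, chr3:11272309-11557665, plus strand), the E1-like enzyme that activates ATG12 and the LC3 family, fell in KO at 24 h. In KO it was at 261, 249, 289 and 281 FPKM at 0 h, 199, 218, 199 and 183 FPKM at 24 h, and 241, 222, 242 and 212 FPKM at 48 h. In WT it was at 297, 293, 300 and 244 FPKM at 0 h, 229, 222, 203 and 196 FPKM at 24 h, and 237, 254, 268 and 185 FPKM at 48 h. At 24 h no library overlapped those at 0 h in either genotype, and at 48 h the WT libraries overlapped. The change at 24 h was -0.43 ± 0.12 in KO (limma adjusted p = 0.0326) and -0.41 ± 0.12 in WT (adjusted p = 0.0546). The KO call was lost in 5 of 8 fits with 1 library left out and under 3 other settings, among them quantile normalization, with a change of -0.13 and an adjusted p of 0.529. *VGLL4*, opposite *ATG7* over 1596 bases and at a mean of 55.9 FPKM, fell in all 4 comparisons, by 0.68 in KO and 0.66 in WT at 24 h and by 0.61 in KO and 0.64 in WT at 48 h on the log2 scale.

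*ATG4D* (ENSG00000130734.9, chr19:10543895-10553418, plus strand), a protease that processes the LC3 family, fell in KO at 48 h. In KO it was at 113, 91.9, 52.4 and 92.6 FPKM at 0 h, 53.8, 54.6, 46.1 and 49.8 FPKM at 24 h, and 29.1, 69.1, 22.2 and 33.6 FPKM at 48 h. The WT libraries were at 102, 82.4, 84.8 and 53.1 FPKM at 0 h, 57.0, 96.1, 69.1 and 35.4 FPKM at 24 h, and 57.0, 38.9, 48.3 and 47.9 FPKM at 48 h. The KO groups at 48 h and 0 h overlapped through replicate 1 at 48 h and replicate 2 at 0 h. The change was -1.26 ± 0.32 in KO (limma adjusted p = 0.0104) and -0.72 ± 0.32 in WT (adjusted p = 0.207). Without KO replicate 2 at 48 h the KO change was no longer called (adjusted p = 0.0504), and nor was it under quantile normalization (adjusted p = 0.0568). *KRI1*, its partner, was not called.

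The other 7 genes of this group were not called. *ATG3*, the E2-like enzyme of the LC3 family, had group means of 29.5 to 44.6 FPKM. *ATG5*, which pairs with ATG12, had group means of 2.53 in KO and 2.71 in WT at 0 h, 5.34 in KO and 7.09 in WT at 24 h, and 7.87 in KO and 8.03 FPKM in WT at 48 h. Its change at 48 h, named here because it lay nearest the threshold, was 1.47 ± 0.48 in KO (limma adjusted p = 0.0525) and 1.54 ± 0.48 in WT (adjusted p = 0.0534), and it has no opposite-strand partner. *ATG12*, the ubiquitin-like protein, ranged from 1.53 to 40.2 FPKM, and *ATG16L1*, which places the conjugate on the membrane, averaged 2.11 FPKM. Of the other LC3 proteases, *ATG4B* averaged 7.73 FPKM, *ATG4A* 2.79 FPKM, and *ATG4C* 1.23 FPKM with 11 libraries at 0.

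*GABARAP* (ENSG00000170296.9, chr17:7240014-7242770, minus strand), a ubiquitin-like protein that is attached to the autophagosome membrane, had the highest called fold of the set. In KO it was at 7.67, 4.39, 18.02 and 3.23 FPKM at 0 h, 25.9, 34.7, 35.5 and 25.9 FPKM at 24 h, and 63.9, 64.2, 42.9 and 69.6 FPKM at 48 h. In WT it was at 20.4, 6.67, 23.3 and 19.6 FPKM at 0 h, 40.7, 49.8, 50.04 and 37.2 FPKM at 24 h, and 62.1, 35.4, 17.3 and 55.5 FPKM at 48 h. In KO the 3 times did not overlap. In WT all libraries at 24 h lay above those at 0 h, while replicate 2 at 48 h lay within the range at 0 h. The KO change was 2.08 ± 0.44 at 24 h (limma adjusted p = 0.00473) and 3.04 ± 0.44 at 48 h (adjusted p = 4.14e-05), and both calls held in each alternative fit that kept the gene. The WT change was 1.44 ± 0.44 at 24 h (adjusted p = 0.0688) and 1.24 ± 0.44 at 48 h (adjusted p = 0.0993). The WT change at 48 h was called without replicate 2 at 48 h (1.61, adjusted p = 0.0289), and that at 24 h under median-of-ratios scaling (1.55, adjusted p = 0.0467). *AC120057.3*, opposite *GABARAP* over 571 bases and at a mean of 182 FPKM, was called lower in WT at 48 h (-0.49, adjusted p = 0.0414) and in no other comparison.

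The other LC3 and GABARAP genes were not called. *MAP1LC3B*, which encodes the LC3 protein used as the usual autophagosome marker, had means of 25.8 in KO and 12.1 in WT at 0 h, 20.4 in KO and 13.2 in WT at 24 h, and 20.5 in KO and 14.3 FPKM in WT at 48 h. Its KO mean at 0 h included a library at 71.8 FPKM. *GABARAPL1*, a close relative of GABARAP, was at 15.1 to 30.7 FPKM in KO at 24 h, against 4.10 to 11.3 FPKM in KO at 0 h. These ranges did not overlap, but the change of 1.57 ± 0.76 had a limma adjusted p of 0.278. *GABARAPL2*, also of this family, had group means of 5.50 to 10.8 FPKM.

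*SQSTM1* (ENSG00000161011.19, chr5:179806398-179838078, plus strand), the cargo receptor p62 that links ubiquitinated cargo to LC3, was called higher in all 4 comparisons over time. In KO it was at 108, 101, 65.8 and 138 FPKM at 0 h, 149, 155, 150 and 158 FPKM at 24 h, and 167, 183, 170 and 190 FPKM at 48 h. In WT it was at 119, 75.4, 100 and 109 FPKM at 0 h, 148, 195, 160 and 155 FPKM at 24 h, and 164, 148, 189 and 151 FPKM at 48 h. Every later library lay above every library at 0 h in both genotypes. The change was 0.61 ± 0.18 in KO (limma adjusted p = 0.0425) and 0.72 ± 0.18 in WT (adjusted p = 0.0203) at 24 h. At 48 h it was 0.82 ± 0.18 in KO (adjusted p = 0.00291) and 0.70 ± 0.18 in WT (adjusted p = 0.0159). The KO call at 24 h was lost in 7 of 8 fits with 1 library left out, with a highest adjusted p of 0.161, while the KO call at 48 h held in all 8. Both WT calls were lost without WT replicate 1 at 0 h, and that at 24 h also without WT replicate 1 at 24 h (highest adjusted p = 0.0857). Without a variance trend in the fit *SQSTM1* was not called in KO at 24 h (adjusted p = 0.161), in WT at 24 h (adjusted p = 0.119) or in WT at 48 h (adjusted p = 0.0885), and without the filter it was not called in KO at 24 h.

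*MRNIP*, opposite *SQSTM1*, moved in the same direction. In KO it was at 5063, 3745, 4581 and 4825 FPKM at 0 h, 12080, 10753, 11449 and 9774 FPKM at 24 h, and 9042, 8449, 10601 and 7376 FPKM at 48 h. In WT it was at 5110, 4402, 4410 and 3634 FPKM at 0 h, 8179, 10055, 12401 and 9708 FPKM at 24 h, and 9007, 8530, 11331 and 5871 FPKM at 48 h. Every later library exceeded every library at 0 h. The change was 1.28 ± 0.16 in KO (limma adjusted p = 1.19e-05) and 1.19 ± 0.16 in WT (adjusted p = 5.30e-05) at 24 h, and 0.96 ± 0.16 in each genotype at 48 h (adjusted p = 0.000193 in KO and 0.000367 in WT). The 1582 shared bases are part of 7654 exon bases of *SQSTM1*, and how far fragments of the pair were counted to each gene was not tested.

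**Figure D3:**
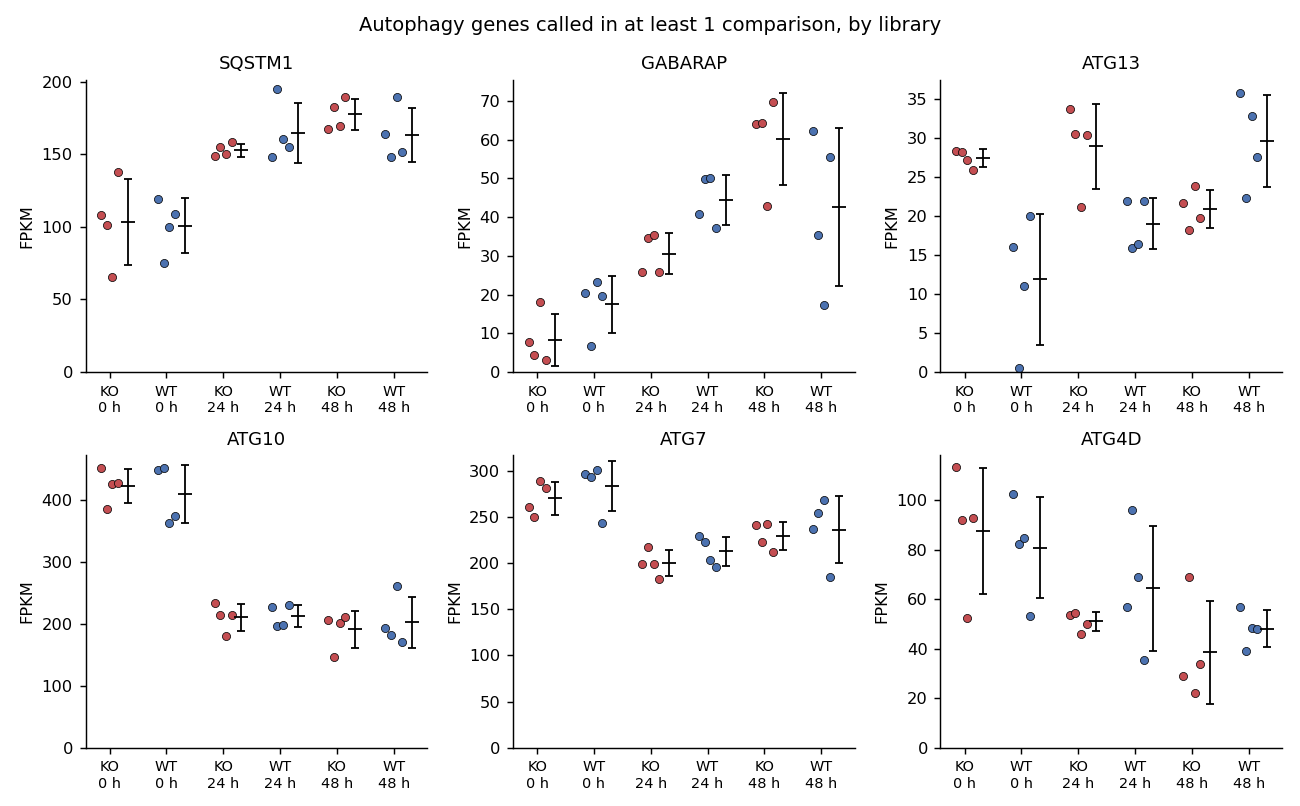
FPKM of the 6 called autophagy genes in each library, KO in red and WT in blue, with the mean and SD (n = 4) beside the points. *SQSTM1* is higher and *ATG10* is lower at 24 h and 48 h than at 0 h in both genotypes. *GABARAP* in KO lies between 3.23 and 18.02 FPKM at 0 h and between 42.9 and 69.6 FPKM at 48 h. In WT *GABARAP* lies between 6.67 and 23.3 FPKM at 0 h, 37.2 and 50.04 FPKM at 24 h, and 17.3 and 62.1 FPKM at 48 h.

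**Figure D4:**
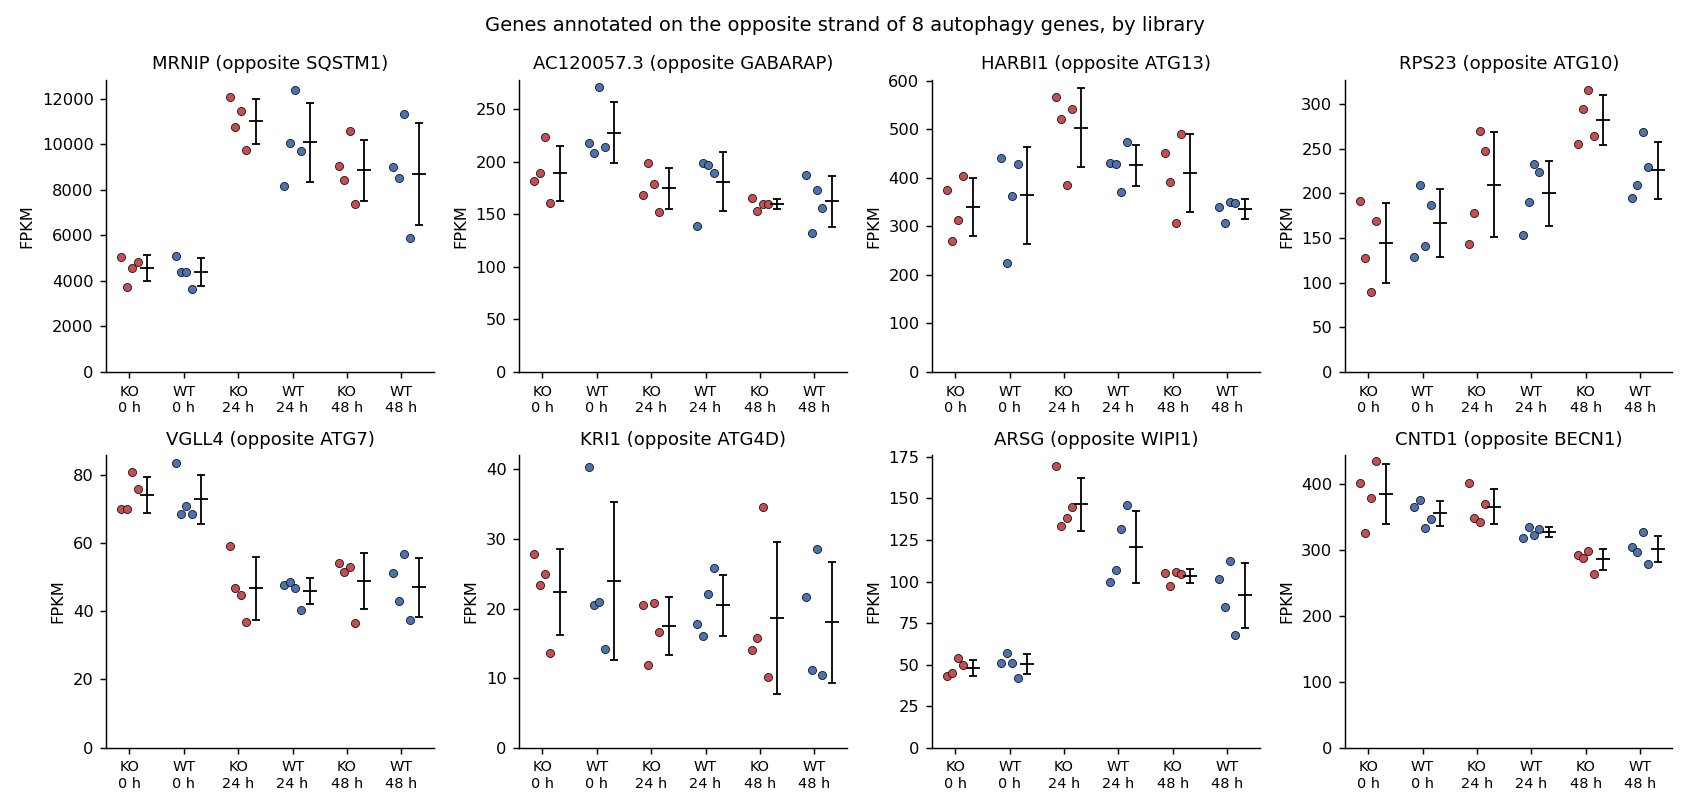
FPKM in each library of the gene on the opposite strand of the 6 called members and of *WIPI1* and *BECN1*, KO in red and WT in blue, with the mean and SD (n = 4) beside the points. *MRNIP* and *ARSG* are higher and *VGLL4* is lower at 24 h and 48 h than at 0 h in both genotypes, while *HARBI1* and *KRI1* at 24 h and 48 h overlap 0 h.

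The other cargo receptors were not called. *TAX1BP1*, a receptor that also restrains inflammatory signalling, had all 4 WT libraries at 24 h (32.6 to 43.3 FPKM) above those at 0 h (5.01 to 29.6 FPKM), a change of 1.32 ± 0.44 with a limma adjusted p of 0.106. *OPTN*, a receptor of mitophagy, had group means of 31.7 to 52.9 FPKM, and *CALCOCO2*, which also targets bacteria, of 13.8 to 23.6 FPKM. *NBR1*, a receptor related to SQSTM1, was at 14.7 to 18.8 FPKM in KO and 5.84 to 14.7 FPKM in WT at 48 h, the KO libraries all being higher. That difference, 0.83 ± 0.38, had a limma adjusted p of 0.730.

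No member was called between KO and WT at any time. At 0 h 0 of 33 were called (limma), where 0.0985% of all genes were called, and 2 had an unadjusted p under 0.05. At 24 h it was 0 of 33, with 1 at an unadjusted p under 0.05 (0.0116% of all genes called), and at 48 h 0 of 33, with 1 (0.0638% of all genes). The differences ran from -1.41 to 1.81 on the log2 scale over the 99 tests. At 0 h *ATG13* was higher in KO, at 25.9 to 28.4 FPKM, than in WT, at 0.536 to 19.97 FPKM, a difference of 1.81 ± 0.56 with an adjusted p of 0.382, or 0.83 ± 0.24 without WT replicate 1 at 0 h (adjusted p = 0.329). *GABARAP* at 0 h was at 3.23 to 18.02 FPKM in KO and 6.67 to 23.3 FPKM in WT, with a difference of -1.18 ± 0.44 (adjusted p = 0.538), and the groups overlapped. *ATG14* at 24 h was at 10.7 to 14.1 FPKM in KO and 6.19 to 9.66 FPKM in WT, with a difference of 0.62 ± 0.25 (adjusted p = 0.914). A p that misses the threshold does not show that KO and WT were alike.

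An interaction term compared the response of KO cells with that of WT cells. None of the 33 members was called by limma, where 0% of all genes were called at 24 h and 0.0522% at 48 h, and 3 of 66 tests had an unadjusted p under 0.05. For *GABARAP* at 48 h the KO response exceeded the WT response by 1.80 ± 0.62 (adjusted p = 0.605), so the call in KO and its absence in WT do not show a difference between them. For *ATG13* at 48 h the interaction was -2.29 ± 0.79 (adjusted p = 0.594), or -1.31 without that WT library (adjusted p = 0.338), and for *BECN1* at 24 h it was 1.56 ± 0.65 (adjusted p = 0.901).

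Genes around the set were also counted by list, and these lists too were chosen with earlier results of these data known. Of 21 tested genes among 24 of further autophagy machinery, 2 rose in KO and 3 in WT at 24 h, and 2 in KO and 1 in WT at 48 h; none fell. Of all genes tested 2.13% in KO and 1.46% in WT rose at 24 h, and 3.4% in KO and 2.57% in WT at 48 h (the background for all 3 lists). *TECPR1*, a tether of autophagosomes and lysosomes, rose at 24 h by 1.64 ± 0.22 in KO and 1.36 ± 0.22 in WT, and had means of 42.4 in KO and 38.9 in WT at 0 h, 133 in KO and 104 in WT at 24 h, and 56.4 in KO and 52.8 FPKM in WT at 48 h. *TP53INP1*, a stress protein that binds LC3, rose in KO at 24 h (1.73 ± 0.48), and at 48 h in KO (2.94 ± 0.48) and WT (2.24 ± 0.48). Its relative *TP53INP2* rose in KO at 48 h (2.46 ± 0.61), and *YKT6*, a fusion protein, and *SH3GLB1*, which binds UVRAG, rose in WT at 24 h (1.53 ± 0.38 and 1.76 ± 0.49). In KO at 0 h and 24 h *YKT6* averaged 10.5 and 20.7 FPKM and *SH3GLB1* 3.78 and 7.49 FPKM, without a call. *TP53INP2* in WT averaged 3.67 FPKM at 0 h and 5.29 FPKM at 48 h, also without a call. The medians of this list were 0.29 in KO and 0.45 in WT at 24 h, and 0.62 in KO and 0.41 in WT at 48 h.

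Of 20 further receptors of selective autophagy and mitophagy, 1 rose in KO and 0 in WT at 24 h (4 in WT had an unadjusted p under 0.05), and 2 in KO and 1 in WT rose at 48 h. *STBD1*, a glycogen receptor, rose in KO by 2.72 ± 0.68 at 24 h and 3.01 ± 0.68 at 48 h. Its WT means were 3.29 FPKM at 0 h, 7.61 FPKM at 24 h and 7.09 FPKM at 48 h, without a call. *BNIP3L*, a mitophagy receptor that has an opposite-strand partner, rose in KO at 48 h (2.42 ± 0.68), and *RTN3*, a receptor for tubules of the endoplasmic reticulum, rose in WT at 48 h (1.64 ± 0.49). Of 29 tested upstream regulators, 4 rose in KO and 2 in WT at 24 h, and 5 rose and 1 fell in KO and 2 rose in WT at 48 h. *RRAGD*, a GTPase that acts on mTORC1 and is a known target of TFEB and its relatives, rose in all 4 comparisons, by 2.22 ± 0.58 in KO and 2.61 ± 0.58 in WT at 24 h, and by 3.03 ± 0.58 in KO and 3.19 ± 0.58 in WT at 48 h. *ATF4*, a transcription factor of the integrated stress response, rose in KO by 1.08 ± 0.23 at 24 h and 1.55 ± 0.23 at 48 h, and in WT by 0.95 ± 0.23 at 48 h. In WT at 24 h *ATF4* was not called, with means of 54.9 FPKM at 0 h and 83.0 FPKM at 24 h. *TRIB3*, an ATF4 target, rose in KO at 24 h (1.11 ± 0.30) and 48 h (1.59 ± 0.30); its change in WT was 1.04 ± 0.30 at 24 h (limma adjusted p = 0.0546) and 0.82 ± 0.30 at 48 h (adjusted p = 0.119). *FNIP1*, a folliculin partner, rose in KO (2.005 ± 0.50 at 24 h and 1.84 ± 0.50 at 48 h), with changes in WT of 0.86 ± 0.50 and 1.27 ± 0.50 that were not called. *DDIT3*, a transcription factor of the same stress response, had a change at 24 h of 0.80 ± 0.31 in KO (limma adjusted p = 0.144) and rose by 1.09 ± 0.31 in WT (adjusted p = 0.0445); it was named after its values were seen, as the other regulator called in WT at 24 h. *RRAGC*, a partner of RRAGD, rose in KO at 48 h (3.32 ± 0.82) from a group with 3 of 4 libraries at 0, and *PRKAA1*, a catalytic subunit of AMPK, fell there by 1.48 ± 0.46. In WT at 0 h and 48 h *RRAGC* averaged 2.27 and 2.43 FPKM and *PRKAA1* 31.0 and 32.4 FPKM, without a call. Several of these folds start from libraries at 0 and depend on the pseudocount: at 0 h *TP53INP1* and *FNIP1* were at 0 in 2 of 4 KO libraries, *STBD1*, *BNIP3L* and *TP53INP2* in 1 KO library and *RRAGD* in 2 of 4 WT libraries. The list medians at 24 h and 48 h were 0.23 and 0.26 in KO and 0.17 and -0.06 in WT for the further receptors, and 0.66 and 0.66 in KO and 0.29 and 0.58 in WT for the regulators. Besides *BNIP3L* and *DDIT3*, the genes named from the 3 lists have no opposite-strand partner. No gene of these 3 lists was called between KO and WT or in an interaction (limma), and 15 of the 350 tests had an unadjusted p under 0.05.

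Promoter sequence was looked at because several factors known to act on autophagy genes bind defined letters. RefSeq promoters (GRCh38.p14; 250 bases before to 50 after the start) were matched for 32 of 35 members, all but *ATG4D*, *RB1CC1* and *UVRAG*. The letters CACGTG, the core bound by TFEB and its relatives, were found on either strand in 2 of 32 (6.25%), *ATG3* and *ATG14*, against 7.43% of all 27305 promoters. The antioxidant response core TGACNNNGC was found in 3 of 32 (9.38%), *ATG101*, *CALCOCO2* and *MAP1LC3B*, against 13.6% of all. The amino acid response core TGATGNAA was found in 0 of 32, against 3.67% of all. A match is a description of these letters and not a site, and no match says only that the letters are not in this window. The windows of the 2 members called higher in more than 1 comparison, *SQSTM1* (chr5:179806143-179806442, plus strand) and *GABARAP* (chr17:7242400-7242699, minus strand), hold none of the 3 motifs. That of *SQSTM1* covers the start of its annotated span, at 179806398, and whether most of its transcripts start there was not tested. That of *GABARAP* lies within its annotated span and does not hold the start of that span, at 7242770 on the minus strand. Both windows are shown with those of *ATG3* (chr3:112561913-112562212, minus strand) and *ATG14* (chr14:55411781-55412080, minus strand), in which capitals mark CACGTG. In *ATG3* these letters begin at positions -18 and 6 from the start, and in *ATG14* at -21.
SQSTM1: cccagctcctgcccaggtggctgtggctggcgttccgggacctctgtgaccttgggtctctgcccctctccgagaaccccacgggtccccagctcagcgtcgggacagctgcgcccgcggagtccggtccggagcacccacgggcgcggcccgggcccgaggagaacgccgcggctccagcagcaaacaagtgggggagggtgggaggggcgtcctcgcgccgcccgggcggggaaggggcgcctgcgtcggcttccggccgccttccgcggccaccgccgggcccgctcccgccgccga
GABARAP: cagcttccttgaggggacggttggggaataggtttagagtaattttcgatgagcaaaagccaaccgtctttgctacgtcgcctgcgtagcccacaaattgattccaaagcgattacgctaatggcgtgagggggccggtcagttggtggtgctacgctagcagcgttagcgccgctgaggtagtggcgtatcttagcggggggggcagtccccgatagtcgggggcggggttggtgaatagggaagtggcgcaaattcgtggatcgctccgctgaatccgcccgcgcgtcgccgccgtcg
ATG3: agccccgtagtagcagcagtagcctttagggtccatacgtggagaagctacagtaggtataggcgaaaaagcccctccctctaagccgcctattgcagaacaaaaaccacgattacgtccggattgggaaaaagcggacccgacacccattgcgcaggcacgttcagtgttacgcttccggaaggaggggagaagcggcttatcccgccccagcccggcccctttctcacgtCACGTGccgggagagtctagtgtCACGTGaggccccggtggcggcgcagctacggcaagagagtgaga
ATG14: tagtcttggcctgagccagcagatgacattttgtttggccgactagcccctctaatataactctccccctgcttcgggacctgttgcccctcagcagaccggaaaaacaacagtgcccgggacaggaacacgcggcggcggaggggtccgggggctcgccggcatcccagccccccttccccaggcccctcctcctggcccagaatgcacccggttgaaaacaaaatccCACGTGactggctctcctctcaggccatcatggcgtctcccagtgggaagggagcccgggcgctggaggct
Neither *ATG3* nor *ATG14*, the members with CACGTG, was called in any comparison, and *ATG3* averaged 42.1 ± 6.31 in KO and 44.6 ± 12.4 in WT at 24 h, against 29.5 ± 4.40 in KO and 29.7 ± 9.81 FPKM in WT at 0 h (SD, n = 4).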

How the data were processed

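The authors' deposited table gives FPKM values per Ensembl gene for 24 libraries; per the submitters' processing notes it was made with STAR, Cufflinks and Cuffdiff on GRCh38, without versions, roles or a strand setting. Per the labels' protocols RNA was extracted with a Qiagen kit and libraries were directional mRNA libraries sequenced on a NovaSeq. Fragment counts and any scaling between libraries are not given in the sources used here. Of 58024 IDs, 45 pseudoautosomal duplicates listed at 0 were not used. GENCODE release 29 matched 57375 of the 57979 kept (99.0%) by unversioned ID and gave exon overlap between strands.

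Depth was estimated from the FPKM steps of genes with 1 transcript of at least 1500 bp. It was read off a grid of preset range and assumes full exon length and unscaled FPKM, so it is approximate. Genes averaging 0.5 FPKM or more (17252) were fitted as log2(FPKM + 0.5) with limma 3.58.1 (R 4.3.3): 6 group means, a variance trend, 18 degrees of freedom plus a prior of 4.63; 40727 genes fell below the filter. The 9 comparisons were each later time against 0 h in KO and in WT, KO against WT at each time, and 2 interactions. Calls used p-values adjusted by Benjamini-Hochberg across all tested genes, with a threshold of 0.05. The fit was tested on simulated data. Replicates correlated at 0.816 to 0.881 across 3341 genes at 20 FPKM or more, which are not independent replicates.

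The members and the other gene lists were chosen with earlier results of these data known. Members named with every library value are those called in a comparison or with the highest mean of their role; others are given by means or ranges, and those singled out as near the threshold or not overlapping were chosen after their values were seen. Alternatives were pseudocounts of 0.1 and 1, a filter at 2 FPKM and none, median-of-ratios and quantile scaling, no variance trend, the replicate number as a block, only genes without opposite-strand overlap, and each library left out. Tables and plots used Python 3.11.15 with numpy 2.4.6, pandas 2.3.3 and matplotlib 3.10.9.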

Additional observations from a re-analysis of the deposited data

Results flagged for a closer look

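Among 48 groups of 4 libraries (the 8 autophagy genes named with every library value, in 6 groups), 2 held a library whose gap to the nearest of the others passed Dixon's critical value for 4 samples. Chance gives about 1 in 20. *ATG7* was at 244 FPKM in WT replicate 3 at 0 h, while the other 3 WT libraries at 0 h were at 293, 297 and 300 FPKM (gap 0.877 of the range). *ATG10* was at 146 FPKM in KO replicate 1 at 48 h, while the other 3 KO libraries at 48 h were at 201, 206 and 212 FPKM (gap 0.837). Without WT replicate 3 at 0 h the *ATG7* change in WT at 24 h was called (-0.48, limma adjusted p = 0.0263).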

How the results depend on the processing

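Of 1280 values of the 8 named genes under alternatives, 1188 kept their direction and side of the threshold, 31 lost a call and 6 gained one. The other 55 changed sign without being called either way, from reported values of at most 0.36 in size to values of at most 0.49 (lowest adjusted p = 0.0991). Member calls in KO at 24 h and 48 h (4 and 4) and WT at 24 h and 48 h (2 and 3) became 0, 0, 0 and 0 when only genes without opposite-strand overlap were tested, which leaves out all 6 called members by construction; all-gene calls were then 196, 379, 104 and 220, and 7, 1 and 3 for KO against WT at 0 h, 24 h and 48 h (17, 2 and 11 in full). Without a variance trend members numbered 2 in KO at 24 h, 1 in WT at 24 h and 1 in WT at 48 h, and all genes 639, 334 and 750, with 8 and 4 for KO against WT at 0 h and 48 h and 4 for the interaction at 48 h (9 in full). In WT at 24 h a pseudocount of 0.1 gave 4 members. For KO against WT over all genes, the count at 24 h was 1 with a pseudocount of 1 and 5 under median-of-ratios or quantile scaling; at 48 h it was 7 with a pseudocount of 0.1, 21 under median-of-ratios and 26 under quantile scaling. Median-of-ratios scaling moved the median of all genes by 0.11 (log2) in KO at 48 h. The causes of these shifts, other than the omitted members, were not tested.

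Deviations from group means gave similar correlations for libraries of equal replicate number (-0.13 to 0.14, median 0.0078, over 60 pairs) and of different number (-0.16 to 0.17, median -0.0089, over 180 pairs). The labels state no pairing, and this check cannot exclude pairing by number. With the number as a block, members in WT at 24 h were 4 (*ATG7* and *TAX1BP1* added), and KO against WT gave 0 genes at 24 h and 27 at 48 h. Without 1 library, members numbered 2 to 3 in KO and 1 to 3 in WT at 24 h, and 3 to 5 in KO and 2 to 4 in WT at 48 h; all genes numbered 708 to 939 and 453 to 684 at 24 h, and 1347 to 1623 and 887 to 1073 at 48 h. KO against WT then gave 16 to 36 genes at 0 h (36 without WT replicate 0), 0 to 2 at 24 h and 6 to 33 at 48 h (33 without WT replicate 3), and the interaction 0 to 2 at 24 h and 6 to 13 at 48 h, with 0 members in each. *ATG2A*, *ATG5* and *TAX1BP1* were called in alternatives only; the first 2 have no opposite-strand partner. At an estimated 0.690 to 1.26 FPKM for 1 fragment on 2 kb, the 8 members under 5 FPKM rest on few fragments, and so does *GABARAP* in KO at 0 h.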
